A study of Mus musculus with 12 samples.

Results

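The 10 genes described here are transcripts by which macrophages and other leukocytes are usually recognised: Ptprc, Cd68, Adgre1, Lyz2, Csf1r, Tyrobp, Fcer1g, Cd74, Laptm5 and Itgam. They were taken by their Ensembl gene IDs out of 57010 IDs in the tables, matched by symbol. Their level was followed in 12 poly(A) RNA libraries of chondrocytes, which lay down the matrix of cartilage, cultured as primary cells from the mouse and all labelled as wild type in genotype. There were 4 libraries labelled Control, 4 from cells given a wild-type plasmid (WT) and 4 from cells given a plasmid for the mutant SIRT5F101L. SIRT5 is a deacylase, found largely in mitochondria, that takes malonyl, succinyl and glutaryl groups off lysine side chains. What the Control cells received, the age of the mice, the promoter of the plasmids, the time after transfection, and whether libraries came from separate animals or cultures are not given in the labels. The p-values below therefore measure the spread between these libraries, which may be technical.

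Macrophages arise from monocytes or from embryonic precursors, and they depend on the receptor encoded by Csf1r, which binds the growth factors CSF1 and IL-34. They carry the surface phosphatase CD45 like other blood-derived white cells, take up and digest material in lysosomes, and signal through adaptors with an immunoreceptor tyrosine-based activation motif (ITAM). Cartilage itself has no blood vessels, but cells of the synovium, marrow and perichondrium lie next to it, so marker transcripts of leukocytes in chondrocyte cultures bear on which cells the RNA came from.

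The libraries held 15095357 to 24242139 counts, and 14253 genes passed the filter on low counts. Levels are given in CPM, counts scaled to a common library size after TMM, a normalization for RNA composition, with means ± SD over 4 libraries (n = 4). By principal components of these 14253 genes, SIRT5F101L replicate 1 stood apart from its group, at 20.3 on the second component against -23.5 to -17.0, beside WT replicates at -1.07 to 20.1. Sirt5 had 1 to 19 counts per library, at 0.688 CPM in Control, 0.383 in WT and 0.720 in SIRT5F101L libraries, and the SIRT5F101L mean lay within the SD of 0.169 CPM of the Control mean. The cartilage collagen gene Col2a1 was at 6712 ± 690 CPM in Control, 1663 ± 56.2 in WT and 1311 ± 95.1 in SIRT5F101L libraries. A value of 0 has to be read with care in these tables: B2m, a gene that nearly every nucleated cell transcribes, was listed at 0 in all 12 libraries, as were all 2414 X-linked IDs.

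Promoter windows from RefSeq matched 6 of the 10 genes (Ptprc, Fcer1g, Laptm5, Itgam, Lyz2 and Cd68). The 250 bases before the start site are shown for 4 members that were lower in both plasmid groups, so that the sequence that precedes each transcript can be seen. Many macrophage promoters have a purine-rich site for PU.1, the product of Spi1, built around the letters GGAA. The capitals mark GAGGAA alone, on either strand, so that a match on the opposite strand reads TTCCTC. Other GGAA letters, which the Fcer1g and Lyz2 sequences hold, are not marked. Sequences run 5′ to 3′ on the gene's own strand, and the positions are in GRCm38.p6, the build of that RefSeq table.
Ptprc, chr1:138175306-138175555, minus strand: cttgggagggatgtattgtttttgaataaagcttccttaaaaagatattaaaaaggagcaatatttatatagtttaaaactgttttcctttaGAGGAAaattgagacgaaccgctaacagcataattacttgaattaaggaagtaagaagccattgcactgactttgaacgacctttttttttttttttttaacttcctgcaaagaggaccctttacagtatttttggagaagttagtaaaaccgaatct
Laptm5, chr4:130913066-130913315, plus strand: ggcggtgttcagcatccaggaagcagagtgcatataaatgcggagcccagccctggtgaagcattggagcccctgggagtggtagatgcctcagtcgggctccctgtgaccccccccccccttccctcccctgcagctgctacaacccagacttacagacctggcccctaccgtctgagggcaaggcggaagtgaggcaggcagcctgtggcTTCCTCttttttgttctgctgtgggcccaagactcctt
Fcer1g, chr1:171234350-171234599, minus strand: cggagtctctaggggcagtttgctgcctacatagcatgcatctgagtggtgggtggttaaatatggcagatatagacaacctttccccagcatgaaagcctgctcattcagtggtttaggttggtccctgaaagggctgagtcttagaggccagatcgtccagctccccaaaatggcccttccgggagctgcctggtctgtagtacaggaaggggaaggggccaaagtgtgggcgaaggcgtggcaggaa
Lyz2, chr10:117282273-117282522, minus strand: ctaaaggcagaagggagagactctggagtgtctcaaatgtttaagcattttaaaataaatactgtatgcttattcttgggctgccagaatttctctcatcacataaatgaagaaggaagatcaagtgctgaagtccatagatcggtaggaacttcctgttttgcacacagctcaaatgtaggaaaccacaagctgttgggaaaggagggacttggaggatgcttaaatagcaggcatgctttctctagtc
GAGGAA was found 158 to 153 bases before the start of Ptprc, on the gene's strand, and 38 to 33 bases before the start of Laptm5, on the opposite strand. The 6 members had 7 windows, with 2 for Ptprc, of which only the first, the one shown, held GAGGAA. Counting the 50 bases after the start too, it was in 4 of the 7 windows (1 each of Ptprc, Laptm5, Itgam and Cd68) and in 28.3% of all 32851 windows of that length. The longer form GAGGAAGT, which contains it, was in none of the 7 and in 3.20% of all windows, and the repeat bound by interferon regulatory factors, GAAA, any 2 bases and GAAA again, was in none and in 3.44%. A match of letters is a description of the sequence and does not show a bound site. The bases after the start in the Cd68 window were not found in an annotated Cd68 transcript, while those of the other windows were found in their genes' transcripts.

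Of the 10 genes, 9 passed the filter, and 8 of these 9 were lower in WT than in Control libraries by edgeR's quasi-likelihood test (adjusted p under 0.05 over all tested genes). The background was high, since 28.1% of the 14253 tested genes were called lower in that comparison and 56.8% were called in either direction. The same 8 genes were called lower in SIRT5F101L than in Control libraries, where 30.7% of tested genes were called lower and 60.7% in either direction. None of the 9 was called higher, which 28.7% of tested genes were in WT and 30.0% in SIRT5F101L. For the 8 genes the WT and the SIRT5F101L values lay wholly below the Control values, as they did for 26.5% and 25.7% of tested genes. The median log2 fold change over the 9 tested members was -1.28 in WT and -1.40 in SIRT5F101L against Control, beside -0.01 and -0.02 over all tested genes. A drop of at least 2-fold was called in 6 of the 9 in each comparison, where 7.56% and 7.67% of tested genes were called lower by as much. Without SIRT5F101L replicate 1, the library that stood apart, 8 members were again called lower in SIRT5F101L, from -0.51 on the log2 scale for Cd68 to -2.64 for Tyrobp. Both comparisons use the same 4 Control libraries, so they are not independent of each other. In bulk RNA, fewer cells of a type and less RNA per cell cannot be told apart.

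**Figure D1:**
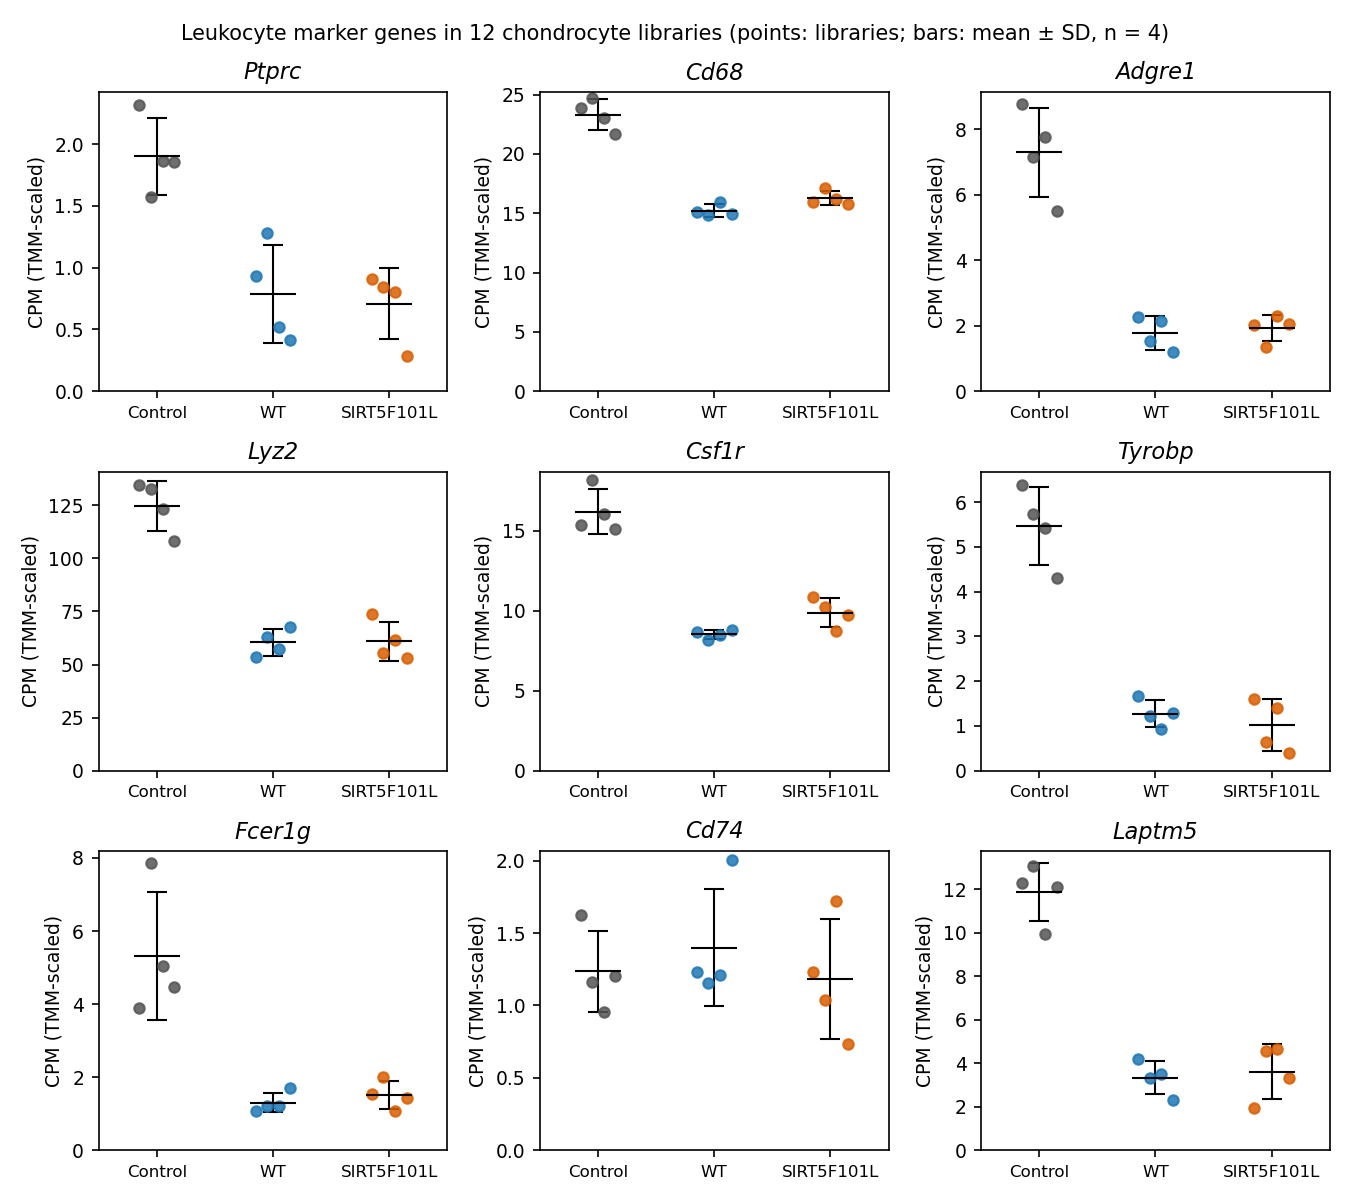
TMM-scaled CPM (vertical axes, from 0) of the 9 tested leukocyte markers in each of the 12 libraries, by group; horizontal bars are means and whiskers 1 SD (n = 4). In 8 panels every Control point lies above every plasmid point, while Cd74 overlaps in the 3 groups, at means of 1.24, 1.40 and 1.18 CPM.

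Among genes shared by most leukocytes, Ptprc (ENSMUSG00000026395) encodes CD45, the surface phosphatase that sets the activity of Src-family kinases. It was at 2.32, 1.57, 1.86 and 1.86 CPM in Control replicates 1 to 4, at 0.937, 1.28, 0.519 and 0.411 CPM in the WT replicates, and at 0.908, 0.844, 0.801 and 0.283 CPM in the SIRT5F101L replicates. All 8 plasmid libraries lay below the lowest Control library, but these levels rest on few reads, 31 to 40 counts per Control library and 5 to 20 per plasmid library. The mean was 41.4% of Control in WT and 37.3% in SIRT5F101L libraries. On the log2 scale the fold change against Control was -1.28 (SE 0.36, adjusted p = 0.00511) in WT and -1.40 (SE 0.36, adjusted p = 0.00237) in SIRT5F101L. SIRT5F101L replicate 4 was the lowest of all, and without it the second value was -1.16.

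Laptm5 (ENSMUSG00000028581) encodes a lysosomal membrane protein of blood-derived cells that takes part in the turnover of antigen receptors. Its level was 12.3, 13.1, 9.95 and 12.1 CPM in Control, 4.19, 3.33, 3.52 and 2.31 CPM in WT, and 1.92, 4.54, 4.65 and 3.34 CPM in SIRT5F101L replicates. The highest plasmid library was therefore below the lowest Control library by more than the spread within any group. Its log2 fold change was -1.83 (SE 0.21, adjusted p = 3.18e-07) in WT and -1.71 (SE 0.21, adjusted p = 6.09e-07) in SIRT5F101L. SIRT5F101L replicate 1 was also the lowest for Laptm5, and without it the second value was -1.50.

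Of the macrophage genes, Adgre1 (ENSMUSG00000004730) encodes F4/80, the surface receptor by which mouse tissue macrophages are commonly stained. Its level was 8.76, 7.14, 7.77 and 5.51 CPM in the Control replicates, 2.27, 1.54, 2.14 and 1.18 CPM in WT, and 2.03, 1.36, 2.28 and 2.04 CPM in SIRT5F101L. Control replicate 4 was the lowest of its group and still had 101 counts, against 21 to 57 counts in the plasmid libraries. Its log2 fold change against Control was -2.03 (SE 0.22, adjusted p = 1.18e-07) in WT and -1.89 (SE 0.21, adjusted p = 2.18e-07) in SIRT5F101L, which left 24.4% and 26.4% of the Control mean.

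Csf1r (ENSMUSG00000024621) encodes the receptor tyrosine kinase on which macrophage survival depends. Its level was 15.3, 18.2, 16.0 and 15.1 CPM in Control, 8.68, 8.14, 8.48 and 8.79 CPM in WT, and 10.8, 10.2, 8.74 and 9.74 CPM in SIRT5F101L replicates. The plasmid libraries kept a larger part of the Control level than they did for Adgre1, 52.7% in WT and 61.1% in SIRT5F101L. Against Control the log2 fold change was -0.92 (SE 0.10, adjusted p = 1.89e-07) in WT and -0.72 (SE 0.10, adjusted p = 4.32e-06) in SIRT5F101L. Of the exon bases of Csf1r, 15.1% overlap those of Hmgxb3 in GENCODE M21, and Hmgxb3 went from 39.0 ± 1.17 CPM in Control to 54.9 ± 4.62 in WT and 57.0 ± 4.39 in SIRT5F101L libraries. Whether reads of one were counted for the other was not tested.

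Cd68 (ENSMUSG00000018774) encodes a heavily glycosylated protein of late endosomes and lysosomes that is abundant in macrophages and present in other phagocytic cells. Its level was 23.9, 24.7, 23.0 and 21.7 CPM in Control, 15.1, 14.9, 16.0 and 14.9 CPM in WT, and 15.9, 17.1, 16.2 and 15.8 CPM in SIRT5F101L replicates. The libraries of each group lay close together, at an SD of 1.30, 0.526 and 0.606 CPM, and the groups given plasmids did not reach the Control range. Among the 8 genes that fell, Cd68 kept the largest part of its Control level, 65.2% in WT and 69.8% in SIRT5F101L libraries. The log2 fold change was -0.62 (SE 0.08, adjusted p = 1.58e-06) in WT and -0.52 (SE 0.08, adjusted p = 1.16e-05) in SIRT5F101L.

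Lyz2 (ENSMUSG00000069516) encodes lysozyme M, the bactericidal enzyme of macrophages and granulocytes whose locus drives a widely used myeloid Cre. It was the most abundant member, at 134, 133, 123 and 108 CPM in Control, 53.7, 63.0, 57.3 and 67.6 CPM in WT, and 73.8, 55.3, 61.7 and 53.3 CPM in SIRT5F101L replicates. The highest plasmid library, SIRT5F101L replicate 1, was below the lowest Control library. The log2 fold change was -1.05 (SE 0.10, adjusted p = 1.31e-08) in WT and -1.03 (SE 0.10, adjusted p = 1.53e-08) in SIRT5F101L. Of the Lyz2 transcript, 96.0% has a copy of at least 95% identity in Lyz1, the lysozyme gene best known from intestinal Paneth cells, so reads may be split between them. Lyz1 itself had 0 to 7 counts in Control libraries and was listed at 0 in all 8 plasmid libraries.

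The pair of ITAM adaptors kept 18.5% to 28.5% of their Control means. Tyrobp (ENSMUSG00000030579) encodes DAP12, which carries the signal of receptors such as TREM2, and Fcer1g (ENSMUSG00000058715) encodes the gamma chain that carries the signal of several Fc receptors. Tyrobp was at 6.38, 5.72, 5.43 and 4.31 CPM in Control, 1.68, 1.22, 0.923 and 1.28 CPM in WT, and 1.60, 0.649, 1.40 and 0.396 CPM in SIRT5F101L replicates. Its log2 fold change was -2.08 (SE 0.29, adjusted p = 3.57e-06) in WT and -2.38 (SE 0.29, adjusted p = 7.61e-07) in SIRT5F101L. Every plasmid library was below every Control library, and within SIRT5F101L replicates 2 and 4 were lower than replicates 1 and 3, on 7 to 35 counts.

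Fcer1g was at 3.89, 7.85, 5.06 and 4.48 CPM in Control, 1.08, 1.22, 1.21 and 1.70 CPM in WT, and 1.55, 2.01, 1.08 and 1.42 CPM in SIRT5F101L replicates. Control replicate 2 was high within its group, yet even the lowest Control library was above the highest plasmid library. The log2 fold change was -2.03 (SE 0.26, adjusted p = 1.18e-06) in WT and -1.84 (SE 0.25, adjusted p = 2.98e-06) in SIRT5F101L. Without Control replicate 2 these values were -1.77 and -1.59.

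Of the 2 remaining members, 1 was not called and 1 had no counts to test. Cd74 (ENSMUSG00000024610) encodes the invariant chain, the chaperone that guides MHC class II molecules to endosomes. It was at 1.63, 1.16, 0.958 and 1.20 CPM in Control, 1.23, 1.15, 1.21 and 2.0 CPM in WT, and 1.23, 1.04, 1.72 and 0.736 CPM in SIRT5F101L replicates. The 3 groups overlapped. For Cd74 the log2 fold change was 0.19 in WT (95% interval -0.46 to 0.84, adjusted p = 0.629) and -0.03 in SIRT5F101L (-0.70 to 0.63, adjusted p = 0.935), on 13 to 43 counts per library. The log2 fold changes of the 8 members that fell lie below the WT interval of Cd74, and those of 7 of them, without Cd68, below its SIRT5F101L interval. Itgam (ENSMUSG00000030786), which encodes the alpha chain CD11b of the complement receptor integrin, was listed at 0 in all 12 libraries. In GENCODE M21, 68.7% of its exon bases overlap Gm49368, which had 0 to 4 counts per library. That leaves other exon bases of Itgam free of the overlap, and why it was listed at 0 was not tested. Since B2m was listed at 0 as well, the 0 does not show how much Itgam RNA was there.

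**Figure D2:**
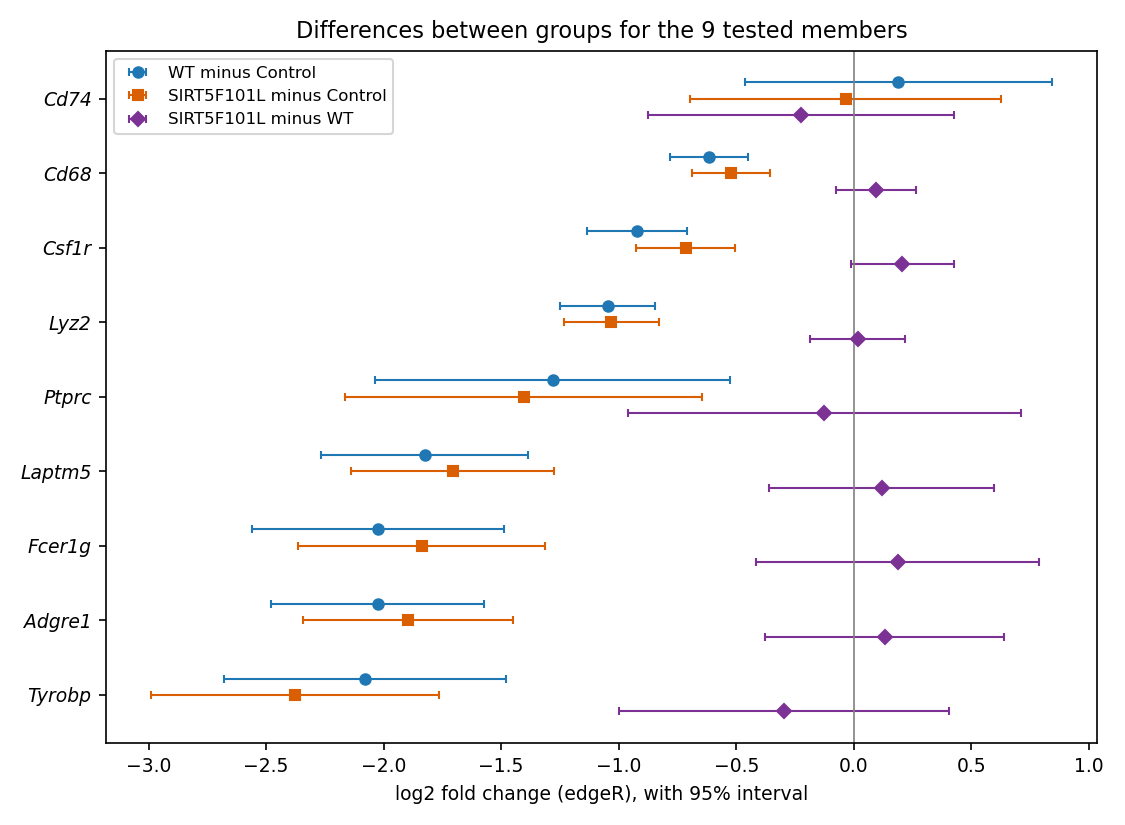
Log2 fold changes of the 9 tested members (horizontal axis) with 95% intervals from edgeR, in 3 comparisons marked by colour and shape. In both comparisons with Control 8 members lie below 0, from -2.08 to -0.62 in WT and from -2.38 to -0.52 in SIRT5F101L, and in SIRT5F101L against WT the interval of every tested member includes 0.

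Levels of different genes were compared per kb of the longest annotated transcript. In Control libraries the order was Lyz2 at 94.8 ± 9.08 CPM per kb, Cd68 at 18.96 ± 1.05, Tyrobp at 9.15 ± 1.45, Fcer1g at 7.79 ± 2.57, Laptm5 at 4.56 ± 0.514, Csf1r at 3.44 ± 0.298, Adgre1 at 2.25 ± 0.421, Cd74 at 0.877 ± 0.199 and Ptprc at 0.331 ± 0.0542. The ranges of Tyrobp and Fcer1g overlapped, as did those of Laptm5 and Csf1r, and the other neighbours did not. In WT libraries Lyz2 and Cd68 still led, at 45.9 ± 4.68 and 12.4 ± 0.428 CPM per kb, but the next genes lay close together, and Tyrobp at 2.14 ± 0.519 overlapped Fcer1g at 1.91 ± 0.394, which overlapped Csf1r at 1.81 ± 0.0605. In SIRT5F101L libraries the ranges of neighbours overlapped all the way from Fcer1g at 2.22 ± 0.565 to Adgre1 at 0.596 ± 0.122 CPM per kb.

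The members' fold changes were of unequal size. For each count of Tyrobp there were 4.28 counts of Cd68 in the Control group, 11.8 in WT and 15.2 in SIRT5F101L, with libraries at 3.74 to 5.03, 9.0 to 17.3 and 9.93 to 39.9. The ratio of Csf1r to Adgre1 counts was 2.23 in Control, 4.78 in WT and 4.93 in SIRT5F101L, and the ranges over libraries, 1.75 to 2.74 in Control, 3.83 to 7.43 in WT and 3.82 to 7.48 in SIRT5F101L, left a gap between Control and plasmid libraries. For the 2 ITAM adaptors there were 0.988, 1.01 and 1.37 counts of Fcer1g per count of Tyrobp in the 3 groups, with overlapping libraries at 0.609 to 1.37, 0.647 to 1.32 and 0.771 to 3.57. A ratio within a library shows unequal change, and not which gene changed.

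Summed over the 10 genes, the markers made up 197 ± 17.2 CPM in Control (175 to 212), 94.0 ± 5.02 in WT (88.8 to 100) and 97.1 ± 9.66 in SIRT5F101L libraries (87.0 to 110). As a share of all counts this was 0.0169% to 0.0211% in Control, 0.00914% to 0.0101% in WT and 0.00896% to 0.0110% in SIRT5F101L libraries. Lyz2 made up most of the sum, and without it the levels were 72.6 ± 5.67, 33.6 ± 1.20 and 36.1 ± 1.73 CPM. In both versions the plasmid libraries lay below the whole Control range.

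The 8 members that fell were set beside inflammatory genes of the same libraries. In a list of 19 cytokines, chemokines and inflammatory enzymes, chosen with earlier results of these data known, all 13 tested genes rose in both plasmid groups. Of all tested genes 28.7% were called higher in WT and 30.0% in SIRT5F101L. The list's median log2 fold change was 5.71 in WT and 5.82 in SIRT5F101L. Nos2, Ccl20 and Cxcl3 had 0 to 14 counts per Control library and passed the filter through the plasmid libraries, so a rise was nearly fixed for them. The list summed to 171 ± 5.71 CPM in Control, 5353 ± 233 in WT and 6029 ± 368 in SIRT5F101L libraries. Saa3, an acute-phase protein, had 0.650 counts per count of Ptprc in the Control group, 394 in WT and 446 in SIRT5F101L. The chemokine gene Ccl5 had 0.703, 367 and 407 counts per count of Tyrobp in the same order. Ptgs2, which encodes the inducible cyclooxygenase, rose from 30.4 ± 2.5 to 1597 ± 73.5 and 1703 ± 151 CPM, and Mmp3, the matrix protease stromelysin, from 16.3 ± 1.55 to 1533 ± 146 and 1880 ± 163 CPM. Il1b, a cytokine made mainly by activated macrophages, had 0 to 7 counts in any library, and Tnf had 6 to 19 in Control and 0 to 5 in plasmid libraries. Ccl2 was listed at 0 throughout. Which cells the inflammatory transcripts came from and what part leukocytes have in them was not tested.

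**Figure D3:**
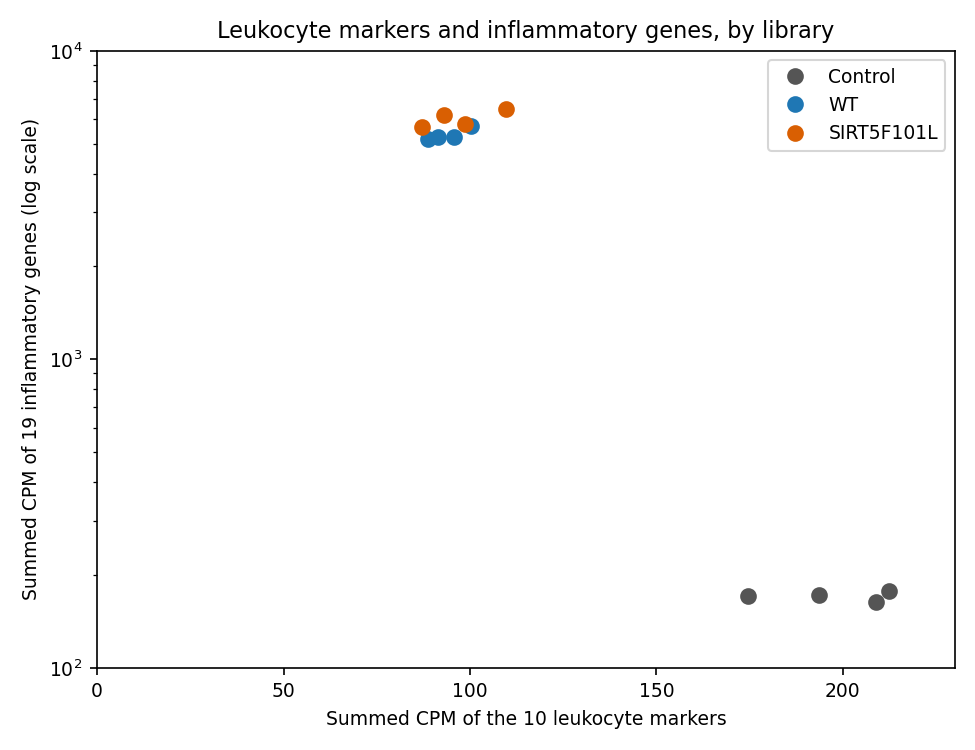
Summed CPM of the 10 leukocyte markers (horizontal axis) against the summed CPM of 19 inflammatory genes (vertical axis, log scale), 1 point per library, coloured by group. Control libraries lie at 175 to 212 and 163 to 177, and plasmid libraries at 87.0 to 110 and 5193 to 6457.

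In a further list of 23 macrophage and monocyte markers, 17 were tested. In WT, 14 of these were lower and 3 higher than in Control, and in SIRT5F101L 9 were lower, 3 higher and 5 not called. The complement genes C1qa, C1qb and C1qc, which tissue macrophages transcribe from one cluster, had log2 fold changes of -2.36, -2.09 and -2.35 in WT and -2.52, -2.15 and -2.45 in SIRT5F101L. Cx3cr1, the fractalkine receptor of resident macrophages, was at 3.91 ± 1.02 CPM in Control, 0.662 ± 0.138 in WT and 0.578 ± 0.205 in SIRT5F101L libraries. Mpeg1, which encodes the pore-forming protein perforin-2, fell by 0.77 and 0.65 on the log2 scale. The genes that rose were Cd14, the lipopolysaccharide co-receptor, from 12.4 ± 1.02 to 51.2 ± 2.96 and 59.7 ± 8.84 CPM, Trem2, a lipid receptor that signals through DAP12, from 10.7 ± 1.20 to 17.3 ± 1.45 and 16.6 ± 2.60 CPM, and the platelet factor gene Pf4, from 1.39 ± 0.261 to 2.22 ± 0.732 and 2.24 ± 0.489 CPM. Over the 17 genes the median log2 fold change was -1.12 in WT and -0.68 in SIRT5F101L. Summed over the 23 genes, the level was 129 ± 3.63 CPM in Control, 114 ± 4.93 in WT and 127 ± 11.8 in SIRT5F101L libraries, with Cd14 alone at 51.2 and 59.7 CPM in the plasmid groups.

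The receptors and signalling genes downstream of the ITAM adaptors were read next, as a list of 17 with 14 tested. In each plasmid group 9 were lower than in Control, 3 higher and 2 not called. The Fc receptor genes Fcgr1 and Fcgr3, whose products depend on the Fcer1g chain, fell by 1.12 and 1.18 on the log2 scale in WT and by 1.17 and 1.06 in SIRT5F101L. The actin regulator gene of blood cells Nckap1l fell by 1.87 and 1.65, and the phosphatase gene Ptpn6, which encodes SHP-1, by 1.46 and 1.40. Higher were Syk, the kinase that binds phosphorylated ITAMs, by 0.74 and 0.64, Lyn, a Src-family kinase, by 0.40 and 0.42, and Trem2. Of these genes Trem2, Fcgr1 and Fcgr3 are also in the macrophage list above. Plcg2, the phospholipase downstream of Syk, was at 13.8 ± 0.557, 15.2 ± 1.18 and 15.9 ± 1.52 CPM and was not called. The median over the 14 genes was -1.30 in WT and -1.19 in SIRT5F101L.

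Around Csf1r, a list of its 2 ligands, the related cytokine receptors and myeloid transcription factors had 9 of 10 genes tested, of which 7 were lower and 1 higher than Control in each plasmid group. Il34, a ligand, was at 16.2 ± 1.41, 6.89 ± 0.849 and 8.13 ± 0.666 CPM in the 3 groups. Csf1, the other ligand, was far more abundant, at 1097 ± 96.5, 1224 ± 92.5 and 1134 ± 26.3 CPM, and was not called in either comparison (adjusted p = 0.0585 and 0.568). Spi1, the master factor of the myeloid lineage, had a log2 fold change of -1.66 (adjusted p = 0.000607) in WT and -1.57 (adjusted p = 0.000826) in SIRT5F101L. Cebpa fell by 1.57 and 1.62, and Irf8 by 1.52 and 1.45. Cebpa, which is transcribed outside leukocytes too, was at 36.0 ± 0.480 CPM in Control, and Spi1 at 3.88 ± 1.22 CPM. Runx1, a factor of both blood and cartilage cells, fell by 0.44 and 0.25. Csf2rb, the shared beta chain of the GM-CSF family of receptors, rose by 1.91 and 1.71.

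The partners of CD11b were read in place of Itgam. Itgb2, the beta chain of the leukocyte integrins, was at 5.23 ± 2.09 CPM in Control, 2.93 ± 0.374 in WT and 2.501 ± 0.447 in SIRT5F101L libraries, and was called lower in both (adjusted p = 0.00508 and 0.000612). Fermt3, the kindlin of blood cells that activates these integrins, fell by 1.01 and 1.85 on the log2 scale. Icam1, a ligand of these integrins on many cells, fell by 0.22 and 0.30. Itga4, a chain also found outside leukocytes, rose by 1.83 and 1.72. Of the 6 tested genes of this list, 4 were lower and 1 higher in WT, and 3 lower and 1 higher in SIRT5F101L.

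Beside Cd74, the list of 9 genes of MHC class II presentation had 6 tested, with 2 lower, 1 higher and 3 not called in each plasmid group. H2-Ab1, a class II beta chain, rose from 9.54 ± 1.37 to 15.9 ± 1.02 and 15.9 ± 2.5 CPM, while its alpha partner H2-Aa had 0 to 4 counts in any library. Ctss, the protease that trims the invariant chain, fell by 1.59 and 1.68 on the log2 scale. H2-DMb1, a chain of the peptide exchange factor, fell by 0.60 and 0.78. H2-DMa, its other chain, was at 7.87 ± 0.807 CPM in Control, 9.35 ± 0.385 in WT and 9.01 ± 1.63 in SIRT5F101L libraries. Ciita, the master regulator of these genes, had 0 to 12 counts in any library.

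Cd68 and Laptm5 were set beside 12 lysosomal genes that most cells transcribe, all tested. In WT 8 of these were lower than in Control and in SIRT5F101L 10, and none was higher, with medians of -0.26 and -0.28 on the log2 scale. Hexa, a subunit of the hexosaminidase, fell most, by 1.37 and 1.46, and Lgmn, the asparaginyl protease legumain, by 0.63 and 0.61. The most abundant, Psap and Ctsb, which encode the saposin precursor and cathepsin B, fell by 0.20 and 0.21 in WT and by 0.23 and 0.20 in SIRT5F101L. The values of Cd68, Csf1r, Lyz2 and Ptprc lay within the range of this list in both comparisons, from -1.37 to -0.01 in WT and from -1.46 to -0.07 in SIRT5F101L, and those of Laptm5, Tyrobp, Fcer1g and Adgre1 lay below it. The low end of that range is Hexa alone: Csf1r, Lyz2 and Ptprc lay below the other 11 genes in both comparisons, and Cd68 among them.

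**Figure D4:**
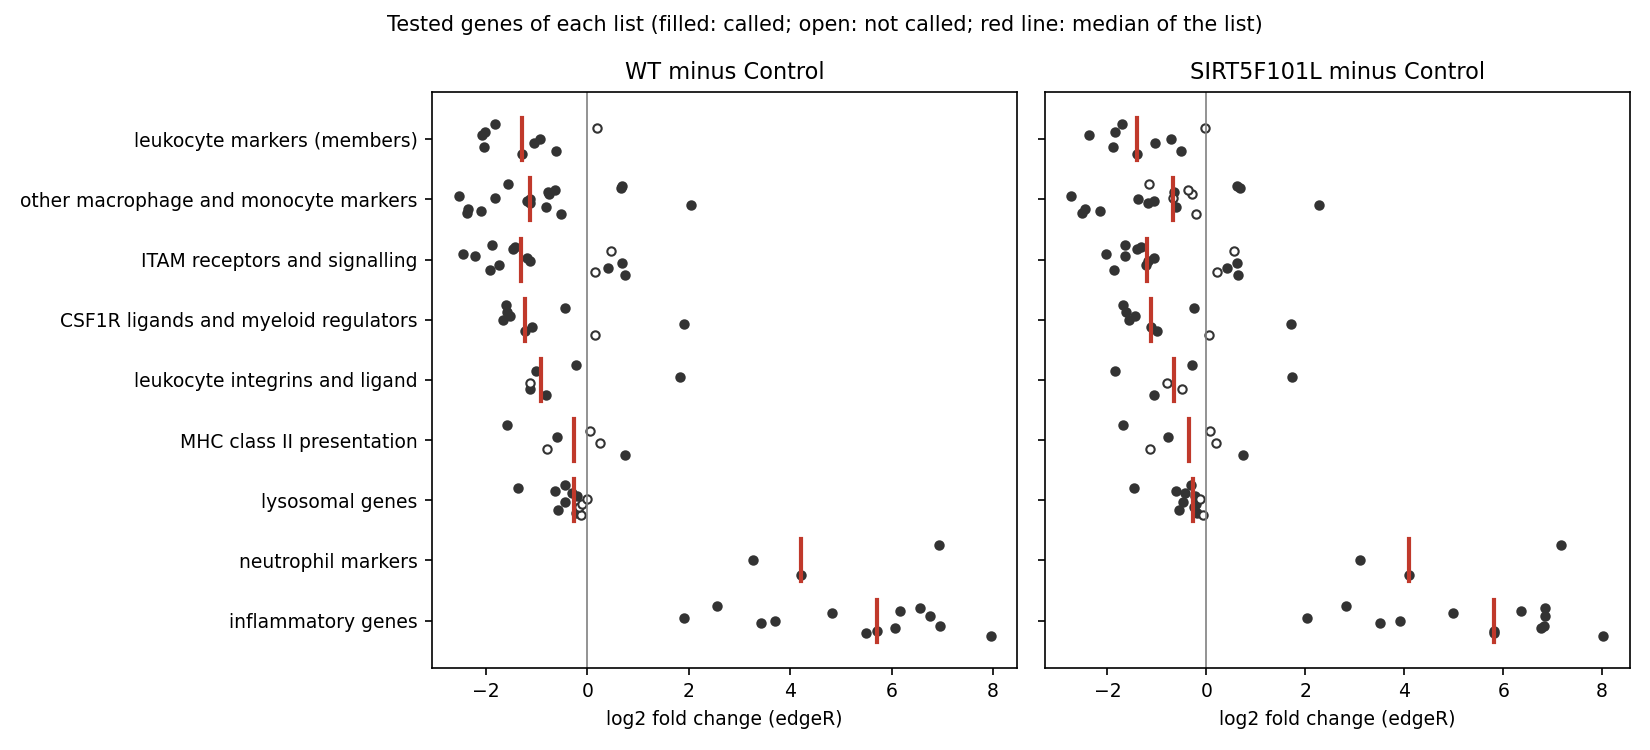
Log2 fold changes (horizontal axes) of the tested genes in 9 lists, for WT and for SIRT5F101L against Control; filled points were called, open points not, and the red line is the list's median. The members and the macrophage, ITAM and CSF1R lists centre between -1.40 and -0.68. The integrin list centres at -0.92 and -0.65, MHC class II presentation at -0.27 and -0.36, and the lysosomal genes at -0.26 and -0.28. The 3 tested neutrophil markers centre at 4.22 and 4.09, and the inflammatory genes at 5.71 and 5.82.

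In the Control libraries, markers of other white cells were mostly at or near 0. Most stayed low in the plasmid libraries, but S100a8 and Mcpt8 did not, and both lay above Cd68 in each plasmid group. Of 20 lymphocyte and natural killer cell markers, 9 were listed at 0 in all libraries, among them Cd3e, a chain of the T cell receptor complex, and the list summed to 1.45 to 3.75 CPM in Control, 2.71 to 3.85 in WT and 2.83 to 5.29 in SIRT5F101L libraries. Of its 2 tested genes, Pax5 was higher in both plasmid groups, at 0.429 ± 0.194, 2.09 ± 0.215 and 2.36 ± 0.777 CPM, and Lck, a T cell kinase, was not called, at 0.669 ± 0.568, 0.501 ± 0.321 and 0.586 ± 0.184 CPM. Of 12 neutrophil markers, 3 were tested and all 3 were higher in both plasmid groups, led by S100a8, an alarmin that other cells also make under inflammation, at 0.385 ± 0.161, 48.6 ± 6.65 and 57.3 ± 15.9 CPM. Camp, the cathelicidin gene, was at 0.204 ± 0.164, 2.01 ± 0.517 and 1.80 ± 0.897 CPM, and Ly6g at 0 to 2 counts in Control and 6 to 17 in plasmid libraries. Granule genes that define neutrophils had few reads: Elane, Ngp and Retnlg had 0 to 4 counts in any library and Mpo 0 to 11, while Ltf was at 0 in every Control library and had 1 to 4 counts in each plasmid library. Of 8 mast cell and basophil markers, 5 were listed at 0, and Mcpt8, a basophil protease, went from 0.281 ± 0.112 to 23.1 ± 1.59 and 23.3 ± 2.62 CPM. Hdc, the enzyme that makes histamine, was the other tested gene, at 0.470 ± 0.276, 2.28 ± 0.271 and 1.52 ± 0.500 CPM, and rose in both. S100a8, Camp, Ly6g, Pax5, Mcpt8 and Hdc had 0 to 15 counts per Control library and passed the filter through the plasmid libraries. For genes kept in that way a call of lower was hardly possible. The part of neutrophils, basophils and the other white cells in the results was not tested.

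Between the 2 plasmid groups none of the 9 tested members was called, by edgeR's test or by DESeq2, and none had an unadjusted p under 0.05. In that comparison 0.0421% of tested genes were called, 6 of 14253. Without SIRT5F101L replicate 1, 2212 of 14528 genes were called, and the number of members called was still 0. With no filter beyond 1 count 354 of 25722 genes were called, and by DESeq2 44. The largest difference by its p was that of Csf1r, 0.21 on the log2 scale (95% interval -0.01 to 0.43, unadjusted p = 0.0641, adjusted p = 0.441), with SIRT5F101L above WT. For Lyz2 the interval was -0.19 to 0.22, for Cd68 -0.07 to 0.27, and for Tyrobp -0.998 to 0.407. The intervals of Lyz2 and Cd68 leave room for small differences only, while that of Tyrobp reaches to nearly 2-fold lower in SIRT5F101L. For Ptprc, on 5 to 20 counts per library, the interval was -0.96 to 0.71.

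The patterns of the 8 members that fell were alike over the 12 libraries, with Pearson correlations of log2 CPM from 0.683 to 0.971 over the 28 pairs and a median of 0.864. The 12 points share the split into Control and plasmid libraries. With group means removed, the correlations ran from -0.640 to 0.797, with a median of 0.118. Cd74 correlated with the other members at -0.149 to 0.247. Among all tested genes outside the list, those most like Ptprc were Pla2g5 (r = 0.938) and Sema6d (0.928), and those most like Laptm5 were Map4k3 (r = 0.986) and Phldb2 (0.984). For the macrophage genes they were Ets2 (r = 0.987) and AI115009 (0.980) for Adgre1, Shank3 (0.993) and Mnat1 (0.985) for Csf1r, Snai2 (0.988) and Alms1-ps1 (0.985) for Cd68, and Anapc11 (0.993) and Lurap1l (0.990) for Lyz2. Tyrobp was most like 1500009L16Rik (r = 0.974) and Ift20 (0.971), and Fcer1g most like Bet1 (0.983) and Shank3 (0.9749). The best matches of Cd74, Gm5873 (r = 0.815) and Gm6767 (0.814), were weaker. Each is a likeness over 12 libraries of 3 groups, and for Lyz2 alone 1432 genes had r over 0.9.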

How the data were processed

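Poly(A) RNA of primary mouse chondrocytes was sequenced as 150 bp pairs, per the labels' protocols. The authors deposited raw counts, whole numbers listed by Ensembl gene ID. The submitters' processing notes name HISAT2 2.2.1, HTSeq 2.0.2, DESeq2 1.38.3 and the build GRCm39, whereas transcript lengths, exon overlaps and copies (BLAST 2.17.0) came from GENCODE M21 on GRCm38, so those are approximate. The strand setting is not given in the sources used here, and groups follow the labels.

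Counts of the 12 libraries were fitted with edgeR 4.0.16 (R 4.3.3): TMM scaling, filterByExpr on the groups, 1 mean per group, 9 residual degrees of freedom, quasi-likelihood tests, 2-sided, with Benjamini-Hochberg adjustment over the 14253 tested genes and a threshold of 0.05. An SE is the size of the log2 fold change over the square root of F. Correlations used log2 CPM with a prior count of 2. The pipeline was tested on simulated data. Alternatives were other scalings (RLE, upper quartile, library totals), filters, a robust prior, the 8 libraries compared, DESeq2 1.42.0 and leaving out each library. The members and lists were chosen with earlier results of these data known. Named from each list were the 2 most abundant tested genes and the 2 with the lowest adjusted p in WT against Control, and for likeness the 2 highest r per member. Further list genes were named after their values were seen, and a few list genes are not reported here.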

Additional observations from a re-analysis of the deposited data

Results flagged for a closer look

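Within-group spread was screened for the 9 tested members and the summed member level in 3 groups, 30 in all, by the gap of the outermost library to its neighbour over the group's range, and 2 stood out where chance gives about 1 in 20, or 1.5. Ptprc in SIRT5F101L replicate 4 was at 0.283 CPM while the other 3 libraries were at 0.801 to 0.908, a ratio of 0.8294, just past the 95% limit, on 5 counts. Cd74 in WT replicate 4 was at 2.0 CPM while the others were at 1.15 to 1.23, a ratio of 0.907. Without the first library the log2 fold change of Ptprc against Control was -1.16, still called lower, and without the second that of Cd74 was -0.04, not called as before.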

How the results depend on the processing

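The number of members called was 8, 8 and 0 in the 3 comparisons under all 20 alternatives, and each of the 8 kept its direction and call against Control. Adjusted p-values for Ptprc, the member with the fewest reads, ran from 0.00131 to 0.0242 in WT and from 0.000389 to 0.0105 in SIRT5F101L. No paired analysis was possible because the labels number no replicates, and the numbers used here only name libraries in order of deposition. Signs turned only where no call was made. Leaving out 1 library at a time gave log2 fold changes of Cd74 from -0.038 (without WT replicate 4) to 0.34 in WT against Control and from -0.30 to 0.13 in SIRT5F101L against Control, where library totals gave 0.049. In SIRT5F101L against WT the same ranges were -0.49 to 0.0017 for Cd74, -0.35 to 0.18 for Ptprc, -0.030 to 0.28 for Adgre1, -0.085 to 0.075 for Lyz2 and -0.051 to 0.33 for Laptm5.

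Over all lists, no gene was called between the plasmid groups, against 8 with no filter beyond 1 count, 1 in the fit of the 8 libraries compared and 7 by DESeq2. Leaving out 1 library at a time gave 0 to 17, with 17 without SIRT5F101L replicate 1 and 1 without Control replicate 2. The cause was not tested. Against Control the lists held 79 to 93 calls in WT and 79 to 89 in SIRT5F101L. In the main fit 56.8% and 60.7% of all tested genes were called in these comparisons. The summed member level without Lyz2 was 72.6, 33.6 and 36.1 CPM. In an alternative added after the data were seen, leaving out each library moved the full sum within 192 to 205, 92.0 to 95.8 and 92.9 to 100 CPM. Depth limits Ptprc, Tyrobp, Fcer1g and Cd74 most, with 43 counts or fewer in any plasmid library.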

Other observations

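Markers of other cells that could lie near cartilage were read in the same fit. Of 10 osteoclast markers, 7 were tested. Itgb3, the integrin beta chain of osteoclasts and many other cells, rose from 8.37 ± 2.09 CPM in Control to 150 ± 8.52 in WT and 153 ± 4.85 in SIRT5F101L libraries, and Nfatc1, the osteoclast transcription factor, from 53.2 ± 2.09 to 155 ± 5.67 and 162 ± 15.6 CPM. Ctsk, the collagen-degrading cathepsin K, fell from 444 ± 22.9 to 313 ± 23.0 and 282 ± 36.1 CPM. Dcstamp and Calcr, which mark fused osteoclasts, had 0 to 6 counts in Control and 0 to 2 in plasmid libraries, and Acp5 was listed at 0. Of the 7, 2 were higher and 1 lower in WT, and 3 higher and 2 lower in SIRT5F101L. Of 8 dendritic cell markers 3 were tested. The factor gene Zbtb46 fell from 2.60 ± 0.526 to 1.10 ± 0.186 and 1.40 ± 0.282 CPM, and Itgax, which encodes CD11c, was not called, at 0.711 ± 0.490, 0.320 ± 0.198 and 0.409 ± 0.0691 CPM.

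None of 4 endothelial markers was called in either comparison with Control by edgeR, with 0 at an unadjusted p under 0.05 in WT and 1 in SIRT5F101L. Pecam1 was at 1.06 ± 0.0776, 0.678 ± 0.117 and 0.646 ± 0.221 CPM, Tek at 1.39 ± 0.104, 1.11 ± 0.608 and 1.34 ± 0.216, and Kdr at 0.647 ± 0.155, 0.960 ± 0.0613 and 0.776 ± 0.264. The 3 erythroid and 4 muscle markers did not pass the filter on low counts. Of 8 chondrocyte markers, 6 were lower in each plasmid group, with 2 higher in WT and 1 in SIRT5F101L. Comp, a matrix protein of cartilage and tendon, fell by 3.26 and 3.44 on the log2 scale and Col9a1 by 3.25 and 3.80. Col11a1 fell from 1424 ± 166 CPM in Control to 547 ± 29.5 and 518 ± 24.1 CPM. Hapln1, the link protein of aggrecan, was higher in both, at 82.1 ± 1.76, 97.7 ± 4.43 and 93.0 ± 10.3 CPM. Acan, the aggrecan gene, was at 133 ± 16.0, 184 ± 5.999 and 143 ± 8.07 CPM, and was called higher in WT but not in SIRT5F101L (adjusted p = 0.243). Sox9, the factor of the chondrocyte lineage, fell by 0.20 and 0.34 on the log2 scale. Of 5 fibroblast markers 3 were lower and 2 higher in each, with Col1a1 down by 1.78 and 1.90 and Col3a1 by 1.44 and 1.33. The 2 that rose were Dcn, the decorin gene, from 414 ± 11.997 to 1124 ± 90.4 and 1303 ± 110 CPM, and the receptor gene Pdgfra, from 199.9 ± 10.8 to 262 ± 13.0 and 306 ± 16.4 CPM.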
